A study of Mus musculus with 2 samples.

Results

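The genes for the neuropeptide precursors of somatostatin, neuropeptide Y (NPY) and cholecystokinin (CCK), and 7 genes for their receptors, were examined in total RNA from mouse hippocampus. The 10 genes were chosen by symbol, as Sst, Sstr1, Sstr2, Sstr3, Sstr4, Npy, Npy1r, Npy2r, Cck and Cckbr, out of 55536 annotated genes, and all 10 were found in every table. The tissue came from female B6CASTF1/J mice, hybrids of C57BL/6J and the wild-derived CAST/EiJ strain, at 10 days of age, with no treatment given in the labels. A single group held 2 libraries, biological replicates 1 and 2, each made from 300 ng of RNA pooled from 3 females, with ribosomal RNA reduced and ERCC spike-in RNAs added. The label names a hippocampal layer and does not say which, so the 2 libraries served to place levels within the tissue and to compare replicate 1 with replicate 2.

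Somatostatin, NPY and CCK are short peptides cut from longer precursors, stored in dense-core vesicles and released mainly at high firing rates. In the hippocampus Sst and Npy mark groups of inhibitory interneurons, such as dendrite-targeting cells and neurogliaform cells, while Cck marks a class of basket cells and is also made by many pyramidal cells. The somatostatin and NPY receptors couple mainly to Gi and Go proteins, which lower cyclic AMP and open potassium channels, and the CCK B receptor, the main CCK receptor of brain, couples to Gq.

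The peptides themselves are encoded by short stretches of these messages. They are shown because they are what the 3 precursor RNAs deliver, with the codons of the released peptide in capitals and the flanking codons for enzymatic cleavage in lower case. Positions are those of mouse build mm10, and the sequences are from the GENCODE M21 transcripts. The somatostatin-14 codons lie at chr16:23889732-23889779 on the minus strand, after a pair of basic codons. The NPY codons lie in 2 exons, at chr6:49823682-49823785 and chr6:49827489-49827501 on the plus strand, and the CCK octapeptide codons at chr9:121490098-121490130 on the minus strand. The NPY and CCK stretches end in a glycine codon, the donor of the peptide's terminal amide, and a pair of basic codons.
somatostatin, 14 codons: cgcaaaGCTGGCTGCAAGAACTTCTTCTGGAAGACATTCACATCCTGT
neuropeptide Y, 36 codons: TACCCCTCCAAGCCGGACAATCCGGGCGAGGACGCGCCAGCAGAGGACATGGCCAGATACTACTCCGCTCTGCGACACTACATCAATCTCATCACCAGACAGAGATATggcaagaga
cholecystokinin octapeptide, 8 codons: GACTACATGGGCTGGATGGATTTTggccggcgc

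The depth was 29858328 expected counts in replicate 1 and 32275110 in replicate 2, and spike-ins took 0.341% and 0.393%. Expected counts are reads assigned to a gene by an estimate that can be fractional. Levels are given in TPM, abundance corrected for transcript length and depth, from the tables estimated from alignments (the alignment-based tables) unless the tables estimated directly from reads (the read-based tables) are named. The counting error of the 10 genes, as an exact 95% Poisson half-interval, ran from 3.42% to 11.0% of the count, and it covers counting only. All 11 hippocampal field genes of a marker list and all 15 genes of inhibitory neuron identity were at 1 TPM or more in both libraries, as were 59.1% of protein-coding genes and all 5 listed striatal and 7 neocortical and subicular genes, so detection alone does not tell these tissues apart. By level, the hippocampal field genes had medians of 37.5 TPM in replicate 1 and 37.4 TPM in replicate 2, the neocortical and subicular genes 28.4 and 19.1 TPM, and the striatal genes 2.43 and 2.42 TPM. Markers of other tissue differed between the pools: the 7 myelin genes summed to 204.6 TPM in replicate 1 and 601.7 TPM in replicate 2, the 6 choroid plexus genes to 438.2 and 689.3 TPM (15.85 and 19.21 TPM without Ttr, which carried the sum), and the 6 thalamus and habenula genes to 60.18 and 40.14 TPM. The lowest myelin marker, Mog, stood at 1.87 and 8.28 TPM, and none of the myelin or choroid genes was at 0.

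All 3 precursors were abundant relative to their receptors. Cck and Sst stood near the top of the protein-coding genes and Npy lower, and all 7 receptors were measured at 6 TPM or more in each library. Cck had 213.9 TPM in replicate 1 and 248.56 TPM in replicate 2, from 2591 and 3310 counts. It ranked 247 among 22015 nuclear protein-coding genes, with 1.12% of them above it. Sst (chr16:23889573-23890958, minus strand) had 202.79 and 204.47 TPM in replicates 1 and 2, from 2606 and 2883 counts, and ranked 310. The libraries were close for Sst, with a mean of 203.63 ± 1.19 TPM (SD, n = 2), and less so for Cck, with 231.23 ± 24.5 TPM.

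Npy (chr6:49822710-49829507, plus strand) had 36.79 TPM in replicate 1 and 41.37 TPM in replicate 2, from 355 and 438 counts. Its mean of 39.08 ± 3.24 TPM (SD, n = 2) placed 12.8% of protein-coding genes above it. Sst was 5.21-fold above Npy (log2 ratio of TPM plus 0.1, 2.38 ± 0.11) and Cck 5.90-fold above Npy (2.56 ± 0.03). A difference between genes was called where the log2 ratio had 1 sign in both libraries and averaged more than 2 SD from 0. With 2 libraries the smallest two-sided exact sign-flip p is 0.5, so this is a rule of spread and not a test. Both ratios to Npy passed it, and Cck over Sst, with 0.08 in replicate 1 and 0.28 in replicate 2 and a mean of 0.18 ± 0.14, did not. In a bulk sample, fewer cells of a type and less RNA per cell cannot be told apart, so these levels are those of the tissue and not of the peptidergic cells.

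**Figure D1:**
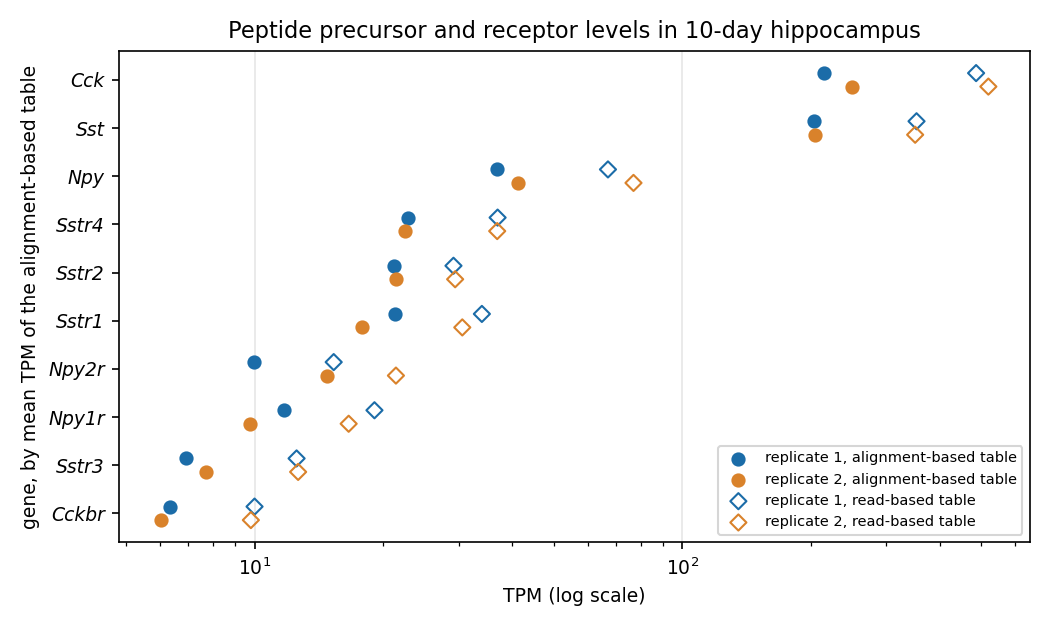
TPM on a log axis for the 10 genes, ordered by the mean of the alignment-based tables, with filled circles for alignment-based and open diamonds for read-based values and 1 colour for each replicate. Cck and Sst stand above 200 TPM, Npy near 40 TPM and the receptors between 6 and 23 TPM in the alignment-based tables, and every read-based value lies to the right of its alignment-based one.

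Other genes with the same levels were not peptide genes. The 3 protein-coding genes nearest to Cck over both libraries were Tubb4a, Prnp and Ndrg2, the nearest to Sst were Slc1a3, Atp1b2 and Eid1, and the nearest to Npy were Tmem132b, Dynlt3 and Ajm1. Slc1a3, a glutamate transporter of astrocytes, had 200.97 and 206.79 TPM in replicates 1 and 2, a distance of 0.021 from Sst on the log2 scale. Likeness was the Euclidean distance over 2 libraries of 1 tissue, so it describes an equal level only.

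The somatostatin receptors are 7-pass membrane proteins that bind somatostatin with similar affinity and differ in where they sit on the cell. Sstr1, Sstr2 and Sstr4 lay close together and Sstr3 lower. Sstr4 (chr2:148395344-148396767, plus strand), a receptor described on CA1 pyramidal cells, had 22.87 TPM in replicate 1 and 22.51 TPM in replicate 2. Sstr2 (chr11:113619342-113626028, plus strand) had 21.12 and 21.45 TPM in replicates 1 and 2. Sstr1 (chr12:58211772-58214444, plus strand) had 21.27 and 17.85 TPM, so that it was level with Sstr2 in replicate 1 and below it in replicate 2.

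Sstr3 (chr15:78537008-78544685, minus strand), which localises to the primary cilium of neurons, was the lowest of the 4. It had 6.91 TPM in replicate 1 and 7.71 TPM in replicate 2, and Sstr2 was 2.89-fold above it (log2 ratio 1.53 ± 0.09). The 4 genes summed to 72.17 TPM in replicate 1 and 69.52 TPM in replicate 2. Sstr4 supplied 31.7% and 32.4% of that sum, Sstr2 29.3% and 30.9%, Sstr1 29.5% and 25.7%, and Sstr3 9.57% and 11.1%. Sst itself was 2.81 times the receptor sum in replicate 1 and 2.94 times in replicate 2. Set against single receptors, Sst was 8.94-fold above Sstr4, 9.53-fold above Sstr2, 10.4-fold above Sstr1 and 27.5-fold above Sstr3, and all 4 ratios passed the spread rule.

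The 2 NPY receptors lay above Sstr3 in both libraries and below the other 3 somatostatin receptors, and did not keep their order. Npy1r (chr8:66697192-66706792, plus strand), the mainly postsynaptic receptor, had 11.71 TPM in replicate 1 and 9.74 TPM in replicate 2. Npy2r (chr3:82538383-82548084, minus strand), a presynaptic receptor that limits transmitter release, had 9.95 and 14.73 TPM in replicates 1 and 2. The log2 ratio of Npy1r over Npy2r was 0.23 in replicate 1 and -0.59 in replicate 2, so neither gene can be called the higher. Npy was 1.70 times the sum of both receptors in replicate 1 and 1.69 times in replicate 2, the smallest excess of precursor over receptors among the 3 systems. Npy was 3.63-fold above Npy1r (1.86 ± 0.31) and 3.20-fold above Npy2r (1.68 ± 0.28).

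Cckbr (chr7:105425731-105470898, plus strand) had the lowest level of the 10 genes in the mean, 6.34 TPM in replicate 1 and 6.03 TPM in replicate 2 from 324 and 338 counts. Cck (chr9:121489824-121495694, minus strand) was 33.7 times Cckbr in replicate 1 and 41.2 times in replicate 2, a log2 ratio of 5.20 ± 0.20. The 3 precursors together held 453.5 TPM in replicate 1 and 494.4 TPM in replicate 2, and the 7 receptors 100.1 ± 0.106 TPM (SD, n = 2). RNA levels do not give receptor protein, and peptide stores and release were not measured here.

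In order of mean level the genes ran Cck, Sst, Npy, Sstr4, Sstr2, Sstr1, Npy2r, Npy1r, Sstr3 and Cckbr. Of the 9 steps between neighbours, 3 exceeded the spread, namely Sst over Npy, Npy over Sstr4 (1.72-fold, log2 0.78 ± 0.14) and Sstr4 over Sstr2 (1.07-fold, 0.09 ± 0.03). The last of these is smaller than the counting half-intervals of 7.92% for Sstr4 and 6.64% for Sstr2 in replicate 1. The other 6 neighbours did not differ beyond their spread: Cck and Sst, and all 5 steps from Sstr2 over Sstr1 down to Sstr3 over Cckbr. By read-based TPM, 6 of 9 steps passed, with Cck over Sst (0.52 ± 0.07), Npy1r over Sstr3 (0.50 ± 0.15) and Sstr3 over Cckbr (0.34 ± 0.03) added, and Sstr1 stood above Sstr2. Of 24 ratios between paired genes, 21 passed in the alignment-based and 22 in the read-based tables. Sstr2 over Sstr1 and Npy1r over Npy2r passed in neither, and Cck over Sst passed in the read-based tables only.

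**Figure D2:**
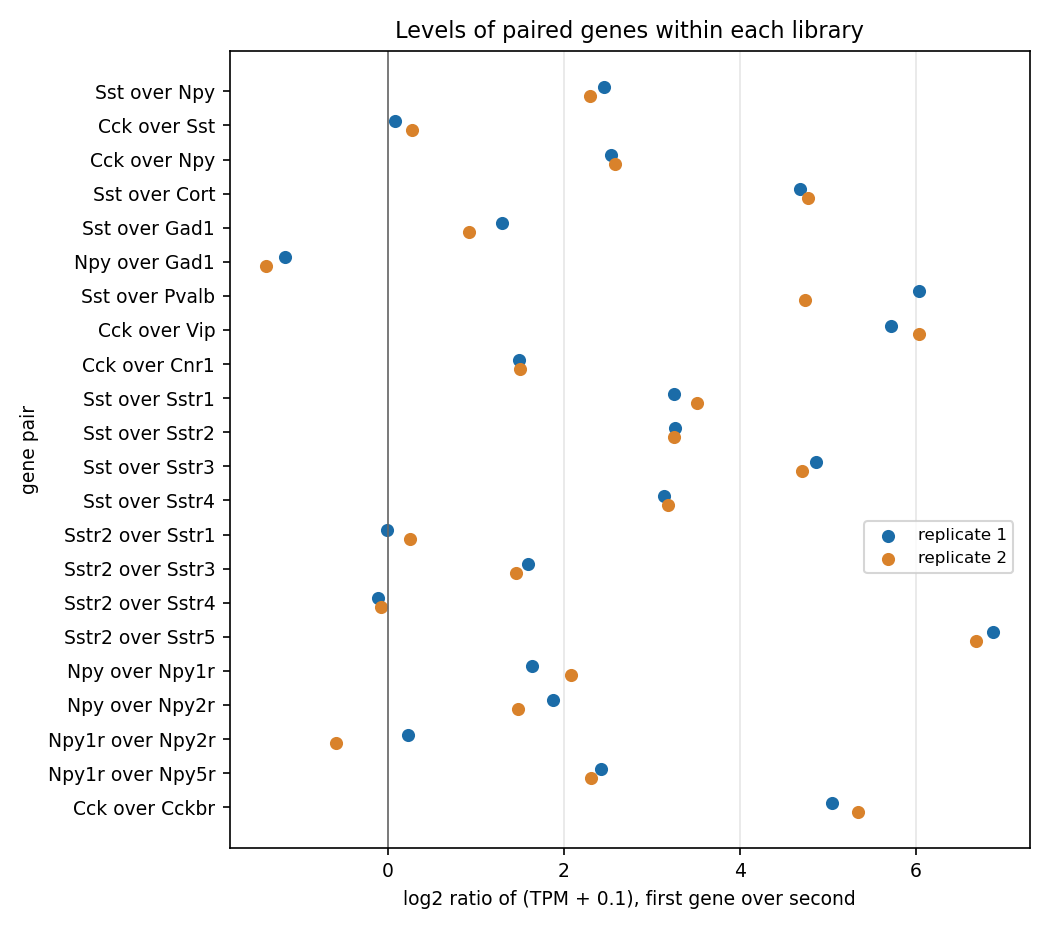
Log2 ratio of TPM plus 0.1, first gene over second, for paired peptide, receptor and interneuron genes, with 1 point per library. Nearly all pairs have both points on the same side of 0, and Npy1r over Npy2r has 0.23 in replicate 1 and -0.59 in replicate 2. The pairs with Pyy and Cckar, each at 0 in replicate 1 of the alignment-based tables, are not drawn.

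The remaining genes of the 3 families were low, 2 of 8 reaching 1 TPM in both libraries. Cort encodes cortistatin, a relative of somatostatin that binds the same receptors, and had 7.79 TPM in replicate 1 and 7.33 TPM in replicate 2, with Sst 26.6-fold above it (4.73 ± 0.07). Npy5r, a further NPY receptor, had 2.11 and 1.88 TPM, and Npy1r was 5.15-fold above it (2.37 ± 0.07). Sstr5, the somatostatin receptor known mainly from pituitary and pancreas, had 4 counts in replicate 1 and 6 in replicate 2, which is 0.08 and 0.11 TPM. Npy4r and Npy6r stayed under 0.2 TPM in both libraries. Cckar, the CCK A receptor of gut and some brain nuclei, had 0 counts in replicate 1 and 2 in replicate 2, and Pyy, a gut relative of Npy, had 0 and 1. Ppy, the pancreatic polypeptide gene, had 0 counts in both libraries, and a count of 0 allows up to 3 counts in a library.

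Set beside genes of interneuron types, Sst was above the enzyme gene Gad1 and Npy below it. Gad1, which makes GABA, had 82.5 TPM in replicate 1 and 108.14 TPM in replicate 2. The log2 ratio of Sst over Gad1 was 1.30 in replicate 1 and 0.92 in replicate 2 (2.05 and 1.71 in the read-based tables), and that of Npy over Gad1 was -1.16 and -1.38. Other genes used to mark somatostatin cells were far lower than Sst, 5 of 7 reaching 1 TPM in both libraries: Nxph1 had 23.48 and 21.13 TPM, Elfn1 15.8 and 13.71 TPM, and Chrna2, a marker of one somatostatin cell type, 0.17 and 0.15 TPM. Of the neurogliaform list, Id2 had 45.68 and 51.35 TPM, Reln 49.14 and 43.6 TPM and Ndnf 16.01 and 13.68 TPM. Nos1 (13.7 and 12.73 TPM), Lamp5 (6.66 and 8.16 TPM) and Gabrd (4.17 and 4.08 TPM) of that list were lower. Of the 8 genes of the CCK basket cell list, 7 reached 1 TPM in both libraries, and the lowest mean was 0.94 TPM. Cnr1, the CB1 cannabinoid receptor carried by CCK basket cells, was the highest, with 75.83 TPM in replicate 1 and 87.65 TPM in replicate 2. Cck was 2.83-fold above Cnr1, with an SD of 0.01 on the log2 scale, and 4.44-fold in the read-based tables. Calb1 had 35.37 and 44.74 TPM, Nr2f2 26.05 and 24.98 TPM, and Adarb2 11.49 and 10.38 TPM. Vip, found in a subset of Cck interneurons, had 3.97 and 3.71 TPM. Pvalb, the marker of the other basket cell class, had 3.00 and 7.54 TPM, the lowest mean of the 5 genes listed for that class. The log2 ratio of Pvalb, replicate 1 over replicate 2, was -1.44. Kcnc1 of that list had 21.19 and 24.23 TPM, Erbb4 18.4 and 17.99 TPM, Syt2 6.33 and 9.26 TPM, and Tac1 7.1 and 7.61 TPM. Many of these genes are also expressed by other hippocampal cells, so the lists do not count cells.

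Among neuropeptides as a whole, Sst, Cck and Npy exceeded all 14 other precursor genes listed, the highest of which was Grp at 27.18 TPM in replicate 1 and 26.45 TPM in replicate 2. Nts had 25.36 and 9.60 TPM and Penk 7.27 and 8.94 TPM. Of 18 other neuropeptide receptors, Adcyap1r1, the PACAP receptor, at 70.98 and 71.74 TPM, and Ntsr2, at 53.98 and 68.91 TPM, exceeded each of the 7 receptors here in both libraries, and Oprl1 at 23.16 and 25.65 TPM exceeded them as well.

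Genes that make and read these peptides ranged widely in level. Of 14 processing genes, 13 were at 1 TPM or more in both libraries, with means from 0.76 TPM for Dpp4, a peptidase, upward. Cpe, the carboxypeptidase that trims basic residues after cleavage, had 1077.38 TPM in replicate 1 and 1281.81 TPM in replicate 2. The convertases Pcsk2 and Pcsk1 had 60.1 and 58.42 TPM, and 9.94 and 11.58 TPM. Pam, which forms the terminal amide of NPY and CCK from glycine, had 69.36 and 74.41 TPM, and Tpst1 and Tpst2, which sulfate the tyrosine of CCK, had 18.0 and 20.4 TPM, and 17.04 and 19.49 TPM. On the receiving side, the 9 genes listed for Gi and Go signalling include G proteins, potassium channels and adenylyl cyclases. The 4 listed for Gq signalling include G proteins and phospholipases. All of them were at 1 TPM or more in both libraries. The highest of each list were Gnao1, with 394.44 and 358.77 TPM, and Gnaq, with 85.75 and 85.2 TPM. The potassium channel gene Kcnj3 had 29.13 and 32.73 TPM.

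The transcripts behind each level were examined next. Sst, Npy and Sstr4 have 1 annotated transcript each, Sstr4 without an intron, and all reads of Cckbr went to Cckbr-201. Cck has 6 annotated transcripts, of which Cck-201 and Cck-203 share 1 coding sequence of 345 bases. They are the 2 whose annotated coding bases encode the octapeptide shown above, and an incomplete model would be counted as lacking it. Cck-201 took 88.2% of Cck TPM in replicate 1 and 89.8% in replicate 2 by alignment, against 16.3% and 28.1% in the read-based tables. Cck-203 took 7.08% and 6.02% by alignment and 41.8% and 43.8% in the read-based tables. Cck-205, a model without an annotated coding start whose 125 coding bases leave out the octapeptide, took 0.991% and 0.266% by alignment and 41.2% and 27.1% in the read-based tables.

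The octapeptide-encoding share of Cck therefore depended on the table. It was 95.3% in replicate 1 and 95.8% in replicate 2 by alignment, and 58.2% and 71.9% in the read-based tables. Counted in reads in place of TPM it was 97.3% and 97.5%, and 78.6% and 86.6%. Cck-205 had 16.6 and 5.7 counts by alignment and 526.9 and 409.4 in the read-based tables, where its effective length was 160.7 bases against 379 by alignment. The gene totals differed far less than their parts, the alignment-based count being 1.016 and 1.011 times the read-based count.

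**Figure D3:**
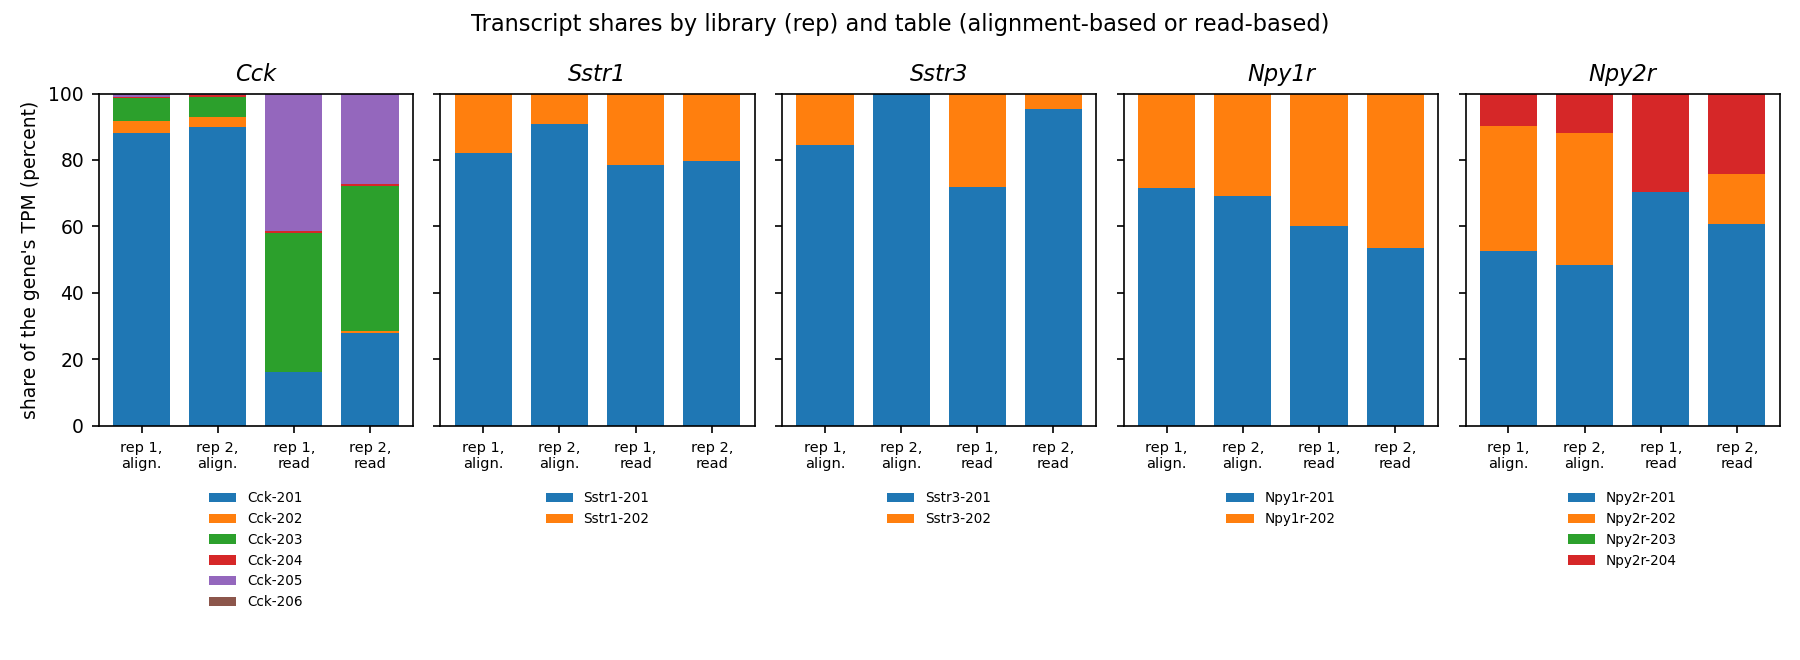
Stacked bars of the share of each gene's TPM taken by its annotated transcripts, in percent, for replicates 1 and 2 in the alignment-based and then the read-based tables. Cck-201 (blue) fills 88.2% and 89.8% of the first 2 Cck bars and 16.3% and 28.1% of the last 2, while the first transcript of Sstr1, Sstr3 and Npy1r leads in all 4 bars.

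For the receptors, transcript choice seldom touched the coding sequence. Npy1r-201 and Npy1r-202 share a coding sequence of 1146 bases and took 71.6% and 28.4% in replicate 1 and 69.1% and 30.9% in replicate 2. Npy2r-201, Npy2r-202 and Npy2r-204 share one of 1143 bases. Npy2r-201 took 52.5% in replicate 1 and 48.4% in replicate 2 by alignment, and Npy2r-202 37.6% and 39.6%. Npy2r-202 had 249.5 and 426.2 counts by alignment and 0 and 169.9 in the read-based tables, so the split among these transcripts differed between the tables. Sstr1-201 took 82.1% and 90.8% by alignment, and Sstr1-202, with the same 1173 coding bases, the rest.

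Sstr2 is a case where a splice changes the protein. The long form, from Sstr2-203, reads through the end of its exon for 38 more codons, and the short form, from Sstr2-201 and Sstr2-202, joins a later exon with 15 codons. The coding ends are shown from the 15 shared bases on, with the bases after the parting point in capitals. The long end lies at chr11:113625235-113625363 and the short end at chr11:113625235-113625249 and chr11:113625589-113625633, both on the plus strand of mm10 in GENCODE M21.
Sstr2-203, long form: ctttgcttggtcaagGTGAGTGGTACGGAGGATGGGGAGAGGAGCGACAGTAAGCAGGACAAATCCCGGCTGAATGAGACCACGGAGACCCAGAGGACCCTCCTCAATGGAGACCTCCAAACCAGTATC
Sstr2-202, short form: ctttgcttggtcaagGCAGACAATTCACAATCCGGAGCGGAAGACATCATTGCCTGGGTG

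Nearly all Sstr2 reads were assigned to the long form. Sstr2-203 had 872.3 of 886 counts in replicate 1 and 994 of 994 in replicate 2. Sstr2-202 had 13.7 counts in replicate 1, 2.18% of the TPM, and 0 in replicate 2, and the read-based tables gave 14.8 and 0. Sstr2-201 had 0 counts in both. Sstr2 lies within Slc39a11 on the opposite strand, which had a mean of 14.48 TPM. No source used here says whether counting used strand, and overlap of their exons was not checked. Reads of the pair may therefore be mixed, and Sstr2 values are uncertain. No other gene of the 10 overlaps an annotated gene.

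Sstr3 showed how a few reads on a short model move TPM. Sstr3-202 is a model of 448 bases, and its coding sequence also differs, with 363 bases against 1284 in Sstr3-201. Sstr3-202 had 7.7 counts in replicate 1 and 0 in replicate 2, yet supplied 1.07 of the 6.91 TPM in replicate 1, 15.5%. On Sstr3-201 alone the levels were 5.85 TPM in replicate 1 and 7.71 TPM in replicate 2.

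The read-based tables gave higher TPM for all 10 genes, as for protein-coding genes in general. The quotient of alignment-based over read-based TPM had a median over 12991 protein-coding genes of 0.639 in replicate 1 and 0.632 in replicate 2. Sstr4, with 0.618 and 0.610, lay near that median, Sstr2, with 0.724 and 0.729, above it, and Cck, with 0.440 and 0.479, below it. In counts the median quotient was 0.917 and 0.922. Npy had 1.335 and 1.292, with 1.61% and 1.86% of protein-coding genes above it, and Sst 1.137 and 1.153. Npy and Sst messages are short, 566 and 721 bases, and the read-based effective lengths, 242.5 and 397 bases, were well under the 467 and 622 bases of the alignment-based tables. Ratios to Gad1 moved with the table: Npy over Gad1 was -1.27 ± 0.16 on the log2 scale by alignment and -0.41 ± 0.09 in the read-based tables. Gad1 itself had TPM quotients of 0.970 and 1.011, above the median, while Npy, with 0.549 and 0.538, lay below it. Ratios to the receptors moved less, though not all stayed within their SD. Sst over Sstr3 was 4.78 ± 0.10 by alignment and 4.79 ± 0.02 in the read-based tables. Sst over Sstr2 went from 3.25 ± 0.01 to 3.58 ± 0.02, and Cck over Cckbr from 5.20 ± 0.20 to 5.65 ± 0.09.

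**Figure D4:**
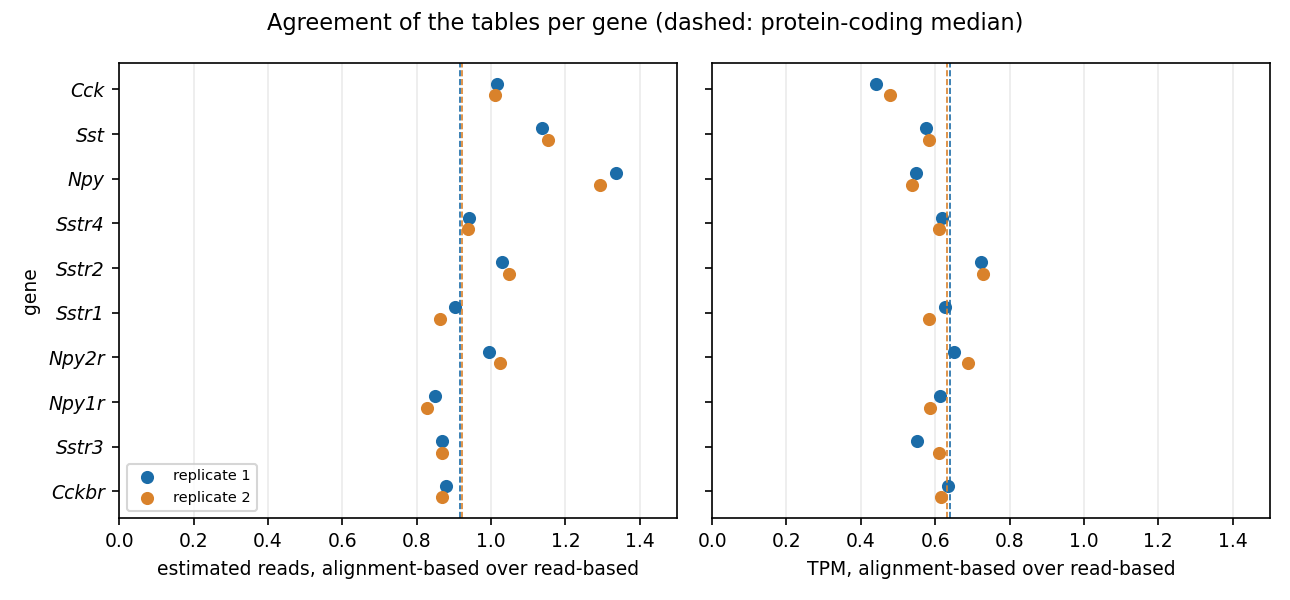
Quotient of alignment-based over read-based values for each gene and library, in estimated reads (left) and TPM (right), with dashed lines at the protein-coding medians. Npy stands farthest right in reads, at 1.335 and 1.292, and Cck farthest left in TPM, at 0.440 and 0.479.

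Replicate 1 was then compared with replicate 2, gene by gene, by an exact two-sided binomial test on rounded expected counts. With 1 library on each side this compares the libraries and has no replicate check. Across 20544 genes tested, 2.83% were called at a Benjamini-Hochberg adjusted p under 0.05 and a log2 ratio of 1 or more, and 0 of the 10 genes were. Without the ratio threshold 27.1% of all genes passed, and 5 of the 10 did. With the main scaling (TMM) all 5 (Npy2r, Cck, Sstr3, Sst and Npy) were lower in replicate 1, as were 15.7% of all genes tested, and 0 of the 10 were higher, against 11.5% of all genes. These calls depended on the scaling: with total counts Sst (adjusted p = 0.585, exact binomial) and Npy (0.166) lost theirs, leaving 3 of the 10 and 8.6% of all genes lower in replicate 1, and Sstr1 and Npy1r passed as higher with 18.8% of all genes. With libraries scaled to spike-ins, which moved the protein-coding median log2 ratio from -0.03 to 0.26, 52.4% of all genes and 6 of the 10 passed as higher in replicate 1 (Sst, Sstr1, Sstr2, Sstr4, Npy1r and Cckbr), and 1.86% of all genes and 2 of the 10 (Npy2r and Sstr3) as lower. At 50 or more counts per gene, 20.1% of all genes and the same 5 of the 10 were lower in replicate 1. The median log2 ratio was -0.12 over the 10 genes and 0.01 over all genes tested. Over the protein-coding genes of like depth, described below, it was -0.04.

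Npy2r differed most. It had 634 counts in replicate 1 and 1018 in replicate 2, a log2 ratio of -0.65 (SE 0.07; exact binomial test, adjusted p = 7.54e-18). Among 7260 protein-coding genes of like depth, with 662 to 5901 counts over both libraries, the ratios had an SD of 0.19, and 0.702% lay as far from 0 as Npy2r. The read-based tables gave the same -0.65, total counts gave -0.57 and spike-in scaling -0.37 (adjusted p = 2.07e-06, exact binomial). Sstr3 followed with 512 counts in replicate 1 and 730 in replicate 2, a log2 ratio of -0.48 (SE 0.08; exact binomial test, adjusted p = 1.15e-07), and -0.19 with spike-in scaling (adjusted p = 0.0369, exact binomial). Its TPM had differed by less, as the short model described above took part of the replicate 1 value.

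Cck had a log2 ratio of -0.32 (SE 0.04; exact binomial test, adjusted p = 7.88e-16), which spike-in scaling reduced to -0.04 (adjusted p = 0.435, exact binomial). Npy had a ratio of -0.27 (SE 0.10; adjusted p = 0.0375, exact binomial) and Sst of -0.11 (SE 0.04; adjusted p = 0.0185, exact binomial). Sstr1 and Npy1r had positive ratios, 0.14 (adjusted p = 0.166) and 0.17 (adjusted p = 0.108), and missed the threshold in the exact binomial test. Both passed it with total counts, at 0.21 (adjusted p = 0.0154) and 0.25 (adjusted p = 0.0109), and with spike-ins, at 0.42 and 0.45. Sstr2 (-0.13), Sstr4 (-0.08) and Cckbr (-0.03) missed it with the main scaling and turned to 0.15, 0.21 and 0.26 with spike-ins. For Cckbr the 95% counting interval of the log2 ratio ran from -0.25 to 0.19.

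**Figure D5:**
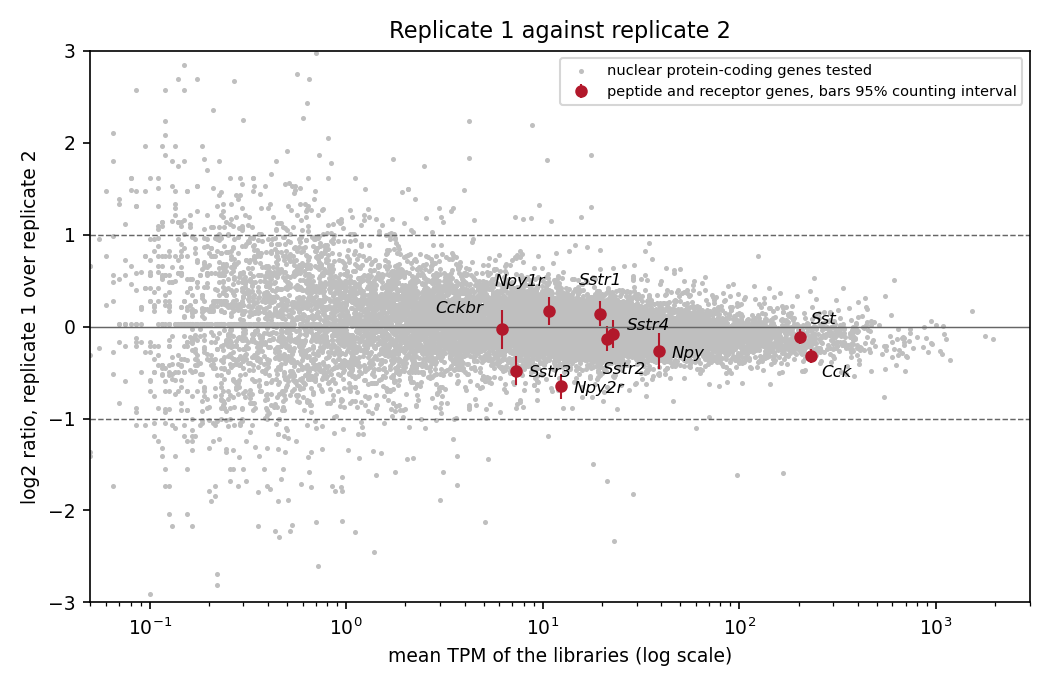
Log2 ratio of counts, replicate 1 over replicate 2, against mean TPM on a log axis, for tested nuclear protein-coding genes (grey) and the 10 peptide and receptor genes (red, bars are 95% counting intervals). All 10 lie between the dashed lines at -1 and 1, Npy2r lowest at -0.65 and Npy1r highest at 0.17, and genes outside the axis limits are not shown.

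Other gene groups also differed between the pools, some in the same direction as these ratios and some in the other. Of the 11 hippocampal field genes, 8 passed the adjusted p and were lower in replicate 1 and none was higher, with a median log2 ratio of -0.32, while spike-in scaling gave 3 lower, 3 higher and a median of -0.04. C1ql2, a gene of dentate granule cells, had 9.32 TPM in replicate 1 and 16.01 TPM in replicate 2, and Fibcd1, a CA1 gene, 37.54 and 51.50 TPM. Wfs1 (40.17 and 37.42 TPM), Mpped1 (77.48 and 69.47 TPM) and Cpne4 (48.95 and 47.61 TPM) of that list did not pass with the main scaling. The 15 inhibitory neuron genes had a median of -0.20, with 6 lower and 2 higher in replicate 1 past the adjusted p, and with spike-ins a median of 0.08, with 1 lower and 5 higher. The 14 processing genes had a median of -0.23, with 10 lower and 0 higher, and with spike-ins a median of 0.05, with 3 lower and 5 higher. All 7 myelin genes were called lower in replicate 1, with a median of -1.67 (-1.39 with spike-ins), and 4 of 6 thalamus and habenula genes passed as higher, with a median of 0.57. Of 7 genes of neocortex and subiculum, 3 passed as higher in replicate 1, among them Tshz2 with 28.4 and 6.79 TPM. Etv1, Fezf2, Cux2 and Rorb of that list did not pass, with log2 ratios of 0.1, 0.14, 0.06 and -0.07. The part of these marker differences in the ratios of Npy2r, Sstr3 and Cck was not tested.

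Promoters were searched for the cyclic AMP response element, whose best-known example is in the Sst promoter. The motif TGACGTCA, which reads the same on both strands, was found in 1.79% of 32851 RefSeq promoters of GRCm38.p6, each 250 bases before to 50 after a start. It was found in 2 of the 9 genes with a promoter in that table, Sst and Sstr2, and Sstr1 has no entry. The windows around it are shown with the motif in capitals, at chr16:23890874-23890903 on the minus strand and chr11:113619258-113619287 on the plus strand. The motif begins 48 bases before the RefSeq start of Sst and 58 before that of Sstr2. The GENCODE M21 model of Sst starts 114 bases upstream of the RefSeq start, so its first exon contains the Sst motif, 66 bases after the GENCODE start, and in Sstr2 the motif lies upstream of both starts.
Sst promoter: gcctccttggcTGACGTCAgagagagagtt
Sstr2 promoter: ccaagctgccgTGACGTCAcgggcgggggc

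The shorter form TGACG, or CGTCA on the other strand, was in 20.8% of promoters and in 4 of the 9 genes, Cck, Sst, Sstr2 and Sstr3, the full motif being counted in it too. The TATAAA motif, TTTATA on the other strand, was in 13.6% of promoters and in 0 of the 9 as spelled. A match describes these letters and not a bound site, and no factor binding was measured.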

How the data were processed

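Each library had a gene table and transcript tables. The deposited expected counts and estimated counts are unnormalized read estimates, per the file headers. Deposited TPM is corrected for length and scaled to a fixed total, spike-ins included, and deposited FPKM, per the file headers, is length-corrected and entered only an alternative for the order and pairs. Build mm10 and annotation M21 are named in the deposited read-me text. No source used here names the programs, their versions or the use of strand, though the columns are laid out as in RSEM and kallisto output.

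The 10 genes, the gene lists and the gene pairs were chosen with earlier results of these data known. Named genes were the 10, all genes of the pairs and of the 3 families, up to 4 genes per list with the highest mean TPM, transcripts with a share of 5% or more, and the 3 genes nearest to each precursor. Others named (Kcnj3, Pcsk1, Pcsk2, Pam, Tpst1, Tpst2, Chrna2, C1ql2, Tshz2, Mog, Dpp4, Slc39a11 and transcripts under 5%) were chosen after their values were seen. So were Wfs1, Cux2, Rorb, Lamp5 and Gabrd. Of 178 list entries, 177 matched, and Ctgf did not. Counts were tested as rounded expected counts, with TMM effective sizes, 10 or more counts per gene, and Benjamini-Hochberg adjustment over all genes tested. The binomial test covers counting error only. The replicates were separate pools of differently numbered mice, per the labels. Detection was 1 TPM, and read-based transcripts were summed per gene. In simulated Poisson counts, 200 of 20568 tested genes were changed by 1.5 on the log2 scale. The library test called 200 of the 200 and 4 unchanged genes. The changed genes were drawn from those with counts above the test's filter, and the simulation had no variation between pools. It therefore checked the calculation and cannot give the error rate between real pools. Alternatives were scalings, filters, pseudocounts, the read-based table and single replicates. Allele-specific values were not analysed here. Software was pandas 2.3.3, scipy 1.17.1 and numpy 2.4.6 under Python 3.11.15, and DESeq2 1.42.0 and edgeR 4.0.16 under R 4.3.3.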

Additional observations from a re-analysis of the deposited data

How the results depend on the processing

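All 10 genes stayed detected under every alternative run. The steps between neighbours that passed numbered 3, and 6 in the read-based table. With 1 replicate left out the rule reduces to sign, and 7 to 9 of 9 steps had the first gene higher. Genes called between the libraries numbered 582, and 1276 with spike-in scaling, 311 at 50 or more counts and 5572 with no ratio threshold, where 5 of the 10 genes passed, against 0 in the other settings. Spike-in scaling moved the protein-coding median log2 ratio from -0.03 to 0.26 and the calls from 464 higher and 118 lower in replicate 1 to 1188 and 88. With it Sst turned to 0.17, Npy to 0.01, Sstr2 to 0.15, Sstr4 to 0.21 and Cckbr to 0.26, all at or below that median. With total counts Sstr4 turned to 0.00 and Cckbr to 0.05. Npy2r and Sstr3 alone passed the adjusted p as lower in replicate 1 under all 7 settings of the test. Cck lost this call with spike-ins, and Npy with total counts, spike-ins or no filter on low counts. Sst lost it with total counts, and with spike-ins it passed as higher in replicate 1. The cause was not tested. The read-based table and scaling to protein-coding genes moved all 10 levels beyond their SD, and the read-based table moved 10 of 17 transcript shares. No paired analysis was possible because there was 1 group, and the library difference could not be run with a replicate left out. Low-count genes such as Sstr5 and Cckar were limited by depth, and the Cckar level also differed between the alignment-based and read-based tables.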
